A study of Mus musculus with 61 samples.

Results

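The naive pluripotency genes were 10 genes of the 55052 in the expression tables, taken by their symbols and not by their values, and they were followed in all 61 RNA-seq libraries of the series, which fall into 28 conditions. They are the transcription factor genes Nanog, Esrrb, Tfcp2l1, Klf2, Klf4, Klf5, Nr0b1, Tbx3 and Zfp42 (Rex1), and Dppa5a, which encodes a small RNA-binding protein. Mouse embryonic stem cells kept with inhibitors of MEK and GSK-3 and with LIF express these factors together, in a state that resembles the epiblast before implantation. When the inhibitors and LIF are withdrawn the network is dismantled, the cells pass through a formative state that resembles the epiblast after implantation, and only then do they respond to Wnt signaling by making a streak and a body axis. Several of these genes are also used later, Klf4 and Klf5 in epithelia and vessels, Tbx3 in endoderm, heart and limb, and Dppa5a, Nanog and Zfp42 in germ cells, so that a signal in an older aggregate is not by itself a sign of a stem cell.

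The samples were stembryos (gastruloids), aggregates of mouse embryonic stem cells that received a pulse of the GSK-3 inhibitor Chiron, a Wnt agonist, and then elongated in culture, and each library came from pooled stembryos. The wild-type (wt) cells, of 129/SVEV background and kept with the inhibitors and LIF, gave a time course with 2 libraries per stage (72, 84, 96, 108, 120, 132, 144 and 168 h after aggregation), and further wt libraries outside it, 4 at 96 h, 4 at 120 h and 2 at 144 h. Up to 96 h stembryos were collected without selection, and from 108 h only those that elongated. Mutants carried changes at the HoxD locus on both alleles, with 2 libraries per stage and 3 for Del(sub-TAD1) at 96 h.

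Del(CBS1), Del(CBS2), Del(CBS4) and Del(d1-d4) were deletions of single CTCF sites (CBS) or of the segment from Hoxd1 to Hoxd4, made with CRISPR in the wt cells and carried on as clones. In Del(CBS1-2) the second site was deleted in Del(CBS1) cells, so that both lines share a history, and in Ins(2xCBS-d4d8) a cassette with CTCF sites was inserted between Hoxd4 and Hoxd8. Del(CBS1-5) and Del(sub-TAD1) cells were instead derived from mouse blastocysts, and the latter carried a fosmid transgene that supplies Mtx2. The paper states that the mice used to derive cell lines were crossed back to hybrids of BL6 and CBA, a background other than that of the wt cells. For these 2 lines the mutation, the strain background and the origin of the cells cannot be told apart. The lines were studied at 96 h and 120 h, Del(CBS4) at 120 h and 144 h, and Del(CBS1-5) at these 3 stages. The paper counts 2 independent samples in its mutant figures and speaks of biological replicates. Neither it nor the labels say whether the libraries of a condition came from separate cultures. The p-values measure the spread between these libraries, which may be in part technical. In such bulk libraries fewer cells of a type and less RNA per cell cannot be told apart.

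Levels are given as FPKM, the fragments of a gene divided by transcript length in kilobases and by the mapped fragments of the library, a scale on which genes of different length can be compared. The depth, inferred from the steps of single fragments at low FPKM, was between 15.0 and 38.9 M (1 M = 1e6) fragments per library, and none of the 610 values of the 10 genes was listed at 0. Nr0b1 was at or under 3 fragments in 11 libraries, where it was not detectable at this depth, an estimate that covers counting error only. For genes with more than 1 transcript, Zfp42 and Nanog among them, this limit was not worked out. The libraries fell into 2 sets by their content: in 28 libraries 3 mitochondrial mRNAs summed to 2244 FPKM or more, and in the other 33 to at most 6.52 FPKM. The former comprised wt replicates 1 to 3 at 96 h and 120 h and all mutants except Del(sub-TAD1) at 96 h, Del(CBS1-5) at 144 h, Ins(2xCBS-d4d8) and Del(CBS4), so that at 96 h and 120 h mutants of the former were compared with 1 control of the other set, and mutants of the latter with 3. A gene was called higher or lower when limma on log2(FPKM + 0.1), fitted over all libraries, gave a p under 0.05 after Benjamini-Hochberg adjustment over the 17098 genes tested; fold changes are on that log2 scale, which understates the change of low genes.

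In the mm10 build, Nanog (ENSMUSG00000012396) lies at chr6:122707489-122714633 on the plus strand and Zfp42 (ENSMUSG00000051176) at chr8:43295063-43306980 on the minus strand. Esrrb (ENSMUSG00000021255) covers chr12:86361117-86521628, Tfcp2l1 (ENSMUSG00000026380) chr1:118627946-118685168 and Nr0b1 (ENSMUSG00000025056) chrX:86191764-86195947, all on the plus strand. Klf2 (ENSMUSG00000055148) lies at chr8:72319033-72321656 and Klf5 (ENSMUSG00000005148) at chr14:99298691-99315036 on the plus strand, and Klf4 (ENSMUSG00000003032) at chr4:55527143-55532466 on the minus strand. Dppa5a (ENSMUSG00000060461) is a short gene at chr9:78367052-78368177 on the minus strand. Tbx3 (ENSMUSG00000018604), at chr5:119670669-119684724 on the plus strand, overlaps the antisense gene Tbx3os1. None lies in the HoxD cluster.

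Nanog, which was the first to fall in the time course, and Zfp42, which stayed at 32.7% or more of its 72 h mean, are shown here by their promoters, since Oct4 (the product of Pou5f1) and Sox2 are known to act through a joint site at the Nanog promoter. The 250 bases before the RefSeq start are printed on the coding strand, 5′ to 3′, from GRCm38.p6, chr6:122707239-122707488 (plus strand) for Nanog and chr8:43307010-43307259 (minus strand) for Zfp42. Capitals mark the octamer site TTTGCAT, the Sox site ACAATG and the Klf site CCACACCC.
Nanog: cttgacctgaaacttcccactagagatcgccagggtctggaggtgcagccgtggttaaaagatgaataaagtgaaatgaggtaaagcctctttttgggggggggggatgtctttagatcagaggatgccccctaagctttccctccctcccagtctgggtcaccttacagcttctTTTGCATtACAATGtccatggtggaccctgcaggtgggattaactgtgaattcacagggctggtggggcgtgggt
Zfp42: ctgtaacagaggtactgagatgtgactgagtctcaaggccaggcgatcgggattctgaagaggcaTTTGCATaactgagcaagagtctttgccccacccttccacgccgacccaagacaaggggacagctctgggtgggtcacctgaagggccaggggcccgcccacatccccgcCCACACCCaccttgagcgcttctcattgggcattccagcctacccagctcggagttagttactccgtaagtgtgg

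In the Nanog window the octamer site (bases -75 to -69 from the start) was followed, after 1 base, by the Sox site (-67 to -62). The Zfp42 window held an octamer site further away (-185 to -179) and a Klf site (-75 to -68). A promoter was found for 7 of the 10 genes, and not for Klf5, Dppa5a and Tbx3. Both strands of all 32851 promoter windows of the same table were searched, and the motifs do not overlap each other in letters. The octamer site was in 4.12% of the windows, the Sox site in 10.7% and the Klf site in 3.2%, while the pair in this order and at most 1 base apart was in 3 windows of 2 genes, Nanog and Acyp1. An Esrrb site AAGGTCA (4.08% of windows) and a Stat site TTCCNGGAA (0.913%) were in none of the windows of the 7 genes. A match of letters is a description and not a site of binding.

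Over the time course the 10 genes did not go down together. Nanog fell first, by 84 h, and Klf5 next, by 96 h, while the means of Dppa5a, Zfp42, Esrrb, Klf2 and Nr0b1 stayed at 27.3% or more of the 72 h mean at every stage, and Klf4 was higher at 120 h than at 72 h. The contrast of 120 h with 72 h, over the stages that most mutants also cover, called 3 of the 10 genes lower and 1 higher, where 20.4% of all genes tested were lower and 22.1% higher. The median log2 change of the 10 genes was -0.87 and that of all genes 0.00.

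Nanog, a homeodomain factor at the centre of the network, was at 65.8 and 82.5 FPKM at 72 h, 9.87 and 16.1 at 84 h, 2.77 and 4.78 at 96 h, 2.21 and 1.95 at 108 h, and 3.13 and 2.66 at 120 h. It stood at 2.999 and 3.73 at 132 h, 4.18 and 4.71 at 144 h, and 2.60 and 1.81 at 168 h. Both 72 h libraries lay above both 84 h libraries, and those above both 96 h libraries, as for 24.1% and 28.7% of all genes. From 96 h on the stages lay close together. Nanog was the 1 gene called between 72 h and 84 h (log2 change -2.54 ± 0.75 SE, adjusted p = 0.0164), a step at which 5.97% of all genes were called lower. That call was lost without replicate 1 (-2.70) or 2 (-2.37) of 72 h or replicate 1 of 84 h (-2.19). From 72 h to 120 h it changed by -4.63 ± 0.75 (adjusted p = 4.06e-06).

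Klf5, a zinc-finger factor that shares targets with Klf2 and Klf4 in stem cells, was at 12.3 and 13.4 FPKM at 72 h and at 19.4 and 19.7 at 84 h, 152% of its 72 h mean. It was at 2.83 and 2.19 at 96 h, 1.22 and 1.18 at 108 h, 0.642 and 0.7496 at 120 h, 0.732 and 0.949 at 132 h, 1.07 and 0.980 at 144 h, and 1.17 and 1.33 at 168 h. All libraries from 96 h on lay below all libraries of the first stages. Those of 84 h lay above those of 72 h, as for 26.1% of all genes, without a call. The fall came in the step from 84 h to 96 h (-2.92 ± 0.38, adjusted p = 4.18e-07), and from 72 h to 120 h the change was -4.03 ± 0.38 (adjusted p = 8.26e-11).

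Tfcp2l1, a Stat3 target that sustains self-renewal, was at 1.67 and 3.13 FPKM at 72 h, 2.34 and 2.09 at 84 h, 0.971 and 0.345 at 96 h, and between 0.320 and 0.529 in every later library of the time course. All later libraries lay below those of 72 h and 84 h. It was called lower between 84 h and 96 h (-1.74 ± 0.58, adjusted p = 0.0279) and between 72 h and 120 h (-2.05 ± 0.58, adjusted p = 0.00387). The former call was lost without either 84 h library (-1.66 and -1.82) or replicate 2 of 96 h (-1.11), and the latter without replicate 2 of 72 h (-1.62, adjusted p = 0.0751). In the step from 84 h to 96 h, 12.5% of all genes were called lower and 8.16% higher, against 2 and 1 of the 10 genes.

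Klf4 was the 1 gene called higher there. It was at 1.28 and 1.12 FPKM at 72 h, 1.38 and 1.05 at 84 h, 1.83 and 4.89 at 96 h, 1.41 and 1.60 at 108 h, 2.396 and 1.91 at 120 h, and between 1.09 and 1.60 later. Replicate 2 of 96 h was the highest of all 61 libraries. The log2 change was 1.25 ± 0.27 from 84 h to 96 h (adjusted p = 0.00067) and -0.95 ± 0.27 from 96 h to 108 h (adjusted p = 0.0192), the only call at a step where 4.96% of all genes were lower. Without replicate 2 of 96 h these were 0.57 (adjusted p = 0.168) and -0.27 (adjusted p = 0.814), and the call of 96 h against 108 h was also lost without either 108 h library. Without replicate 1 of 96 h Tbx3 was called at both steps (1.66 and -2.33). The same library held the highest Tbx3 of the time course (1.26 FPKM, against 0.178 in replicate 1), 333 FPKM of summed endoderm markers against 121 and 34.3 FPKM of summed cardiac markers against 2.11, and the part of such cells in its Klf4 and Tbx3 was not tested. From 72 h to 120 h Klf4 changed by 0.79 ± 0.27 (adjusted p = 0.0165), a call lost without replicate 1 of 120 h (0.64, adjusted p = 0.138) or replicate 2 of 72 h (0.70, adjusted p = 0.105). Replicate 1 of 120 h had 157 FPKM of endoderm and 95.0 of endothelium markers, against 37.6 and 21.4 in replicate 2.

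Dppa5a, the most abundant of the 10 at every stage of the time course, was at 107 and 91.4 FPKM at 72 h, 58.8 and 70.0 at 84 h, 34.2 and 24.7 at 96 h, 30.5 and 23.5 at 108 h, 53.4 and 30.5 at 120 h, 48.9 and 57.6 at 132 h, 73.1 and 65.4 at 144 h, and 39.0 and 30.0 at 168 h. Its mean reached 27.3% of the 72 h mean at 108 h and 69.9% at 144 h. Zfp42, a zinc-finger factor long used as a reporter of naive cells, was at 3.43 and 3.26 FPKM at 72 h, 1.75 and 3.43 at 84 h, 1.81 and 1.59 at 96 h, 1.61 and 0.866 at 108 h, 2.28 and 1.64 at 120 h, 2.08 and 2.704 at 132 h, 2.77 and 2.98 at 144 h, and 1.31 and 0.872 at 168 h. For both genes the 108 h libraries lay below the 144 h libraries with no overlap, as for 34.4% of all genes. Neither gene was called at any step between neighbouring stages.

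Esrrb, an orphan nuclear receptor and a target of GSK-3 inhibition, had a mean of 2.54 FPKM at 72 h, 41.7% of that at 108 h and 80.7% at 144 h. Klf2 had a mean of 2.10 FPKM at 72 h, 52.9% of it at 108 h and 159% at 144 h. Nr0b1 (Dax1), a nuclear receptor that acts mainly as a corepressor, was at 0.689 and 0.514 FPKM at 72 h, at 0.368 and 0.109 at 108 h, and at 1.11 and 0.995 at 168 h, 175% of its 72 h mean. Tbx3 stayed between 0.143 and 0.529 FPKM in every library of the time course but the 96 h replicate 2 named above.

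After 108 h none of the 10 genes was called at any step between neighbouring stages by limma, and none had an unadjusted p under 0.05. Of all genes, 7.06% were called in either direction from 108 h to 120 h, 2.46% from 120 h to 132 h, 5.42% from 132 h to 144 h and 9.87% from 144 h to 168 h. The wider contrast of 144 h with 108 h was chosen after the values had been seen. It gave 0 calls among the 10 genes by limma, where 19.8% of all genes were called, and 2 genes had an unadjusted p under 0.05. The log2 changes were 1.69 ± 0.76 for Nr0b1, 1.502 ± 0.71 for Klf2, 1.36 ± 0.81 for Dppa5a and 1.21 ± 0.83 for Zfp42, and the median was 1.05 against 0.02 over all genes. With only these 4 libraries in the fit 2 of the 10 genes were called, and with the replicate number as a block 4.

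The stage from which the mean stayed under 10% of its 72 h level was 96 h for Nanog (5.09%) and 108 h for Klf5 (9.33%), and the other 8 genes never got there. With 25% as the limit it was 84 h for Nanog, 96 h for Klf5 and 108 h for Tfcp2l1. Genes outside the 10 gave a scale for these declines: of 10 general pluripotency genes 7 fell and 2 rose from 72 h to 120 h (median -1.66), with Pou5f1 at -6.22 ± 0.62, L1td1 at -5.67 ± 0.78 and Tdgf1 at -5.36 ± 0.93. Of 9 formative genes 6 fell, Fgf5 the most (-7.07 ± 0.75), and of 11 other naive genes 2 fell and 3 rose.

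**Figure D1:**
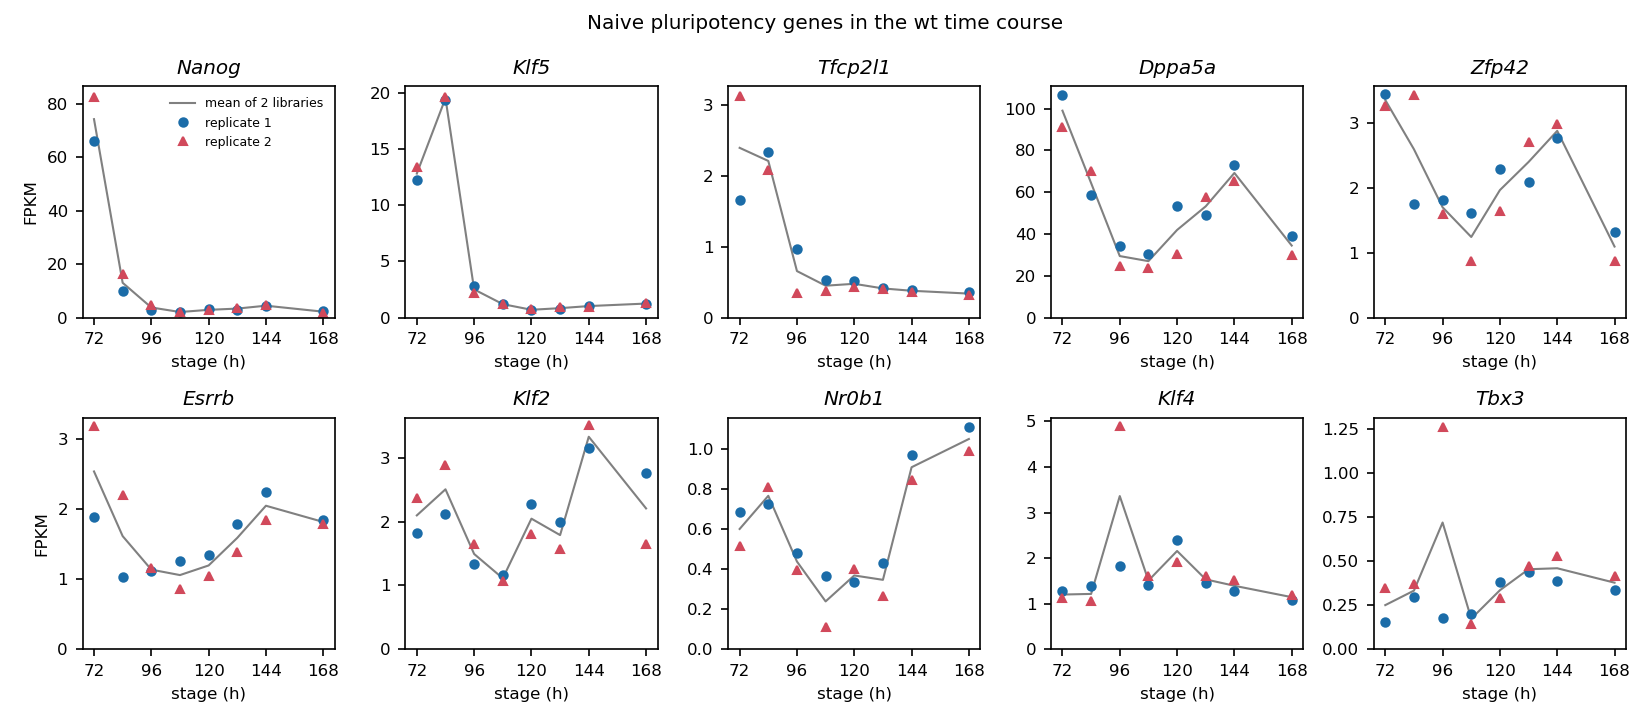
Levels of the 10 naive pluripotency genes in the wt time course, in FPKM on a linear axis from 0, scaled for each gene, against hours after aggregation. Points are single libraries, 2 per stage, and lines join the stage means. Nanog went from 65.8 and 82.5 FPKM at 72 h to 3.13 and 2.66 at 120 h, while Dppa5a was still at 53.4 and 30.5.

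The wt libraries outside the time course were also compared between stages. Klf4 and Klf5 were lower at 120 h than at 96 h and the other 8 genes were not called, where 11.5% of all genes were lower. Klf5 was at 2.11, 1.77, 3.05 and 1.72 FPKM in replicates 1 to 4 at 96 h and at 0.316, 0.348, 1.30 and 0.947 at 120 h. Every 96 h library lay above every 120 h library (-1.61 ± 0.27, adjusted p = 1.46e-05). Klf4 was at 1.87, 1.76, 1.17 and 1.47 FPKM at 96 h and at 1.165, 0.999, 0.819 and 0.740 at 120 h, also with no overlap (-0.69 ± 0.19, adjusted p = 0.00545). Both calls were kept with any 1 library left out and with the replicate number as a block, and neither was kept when only these 8 libraries were fitted. Within the time course Klf5 also lay lower at 120 h (0.642 and 0.7496 FPKM) than at 96 h (2.83 and 2.19). Klf4 overlapped there, at 1.83 and 4.89 FPKM at 96 h and 2.396 and 1.91 at 120 h.

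Replicate 3 of the wt stood apart from the other replicates at both stages. Dppa5a was at 19.4, 20.5, 225 and 24.8 FPKM in replicates 1 to 4 at 96 h and at 27.3, 26.9, 239 and 40.2 at 120 h. Zfp42 was at 0.765, 0.713, 11.7 and 2.25 FPKM at 96 h and at 1.47, 1.20, 11.8 and 2.63 at 120 h. In each case replicate 3 was the highest, well above the time course at any stage, and it did not go down between the stages.

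Nanog showed the same order, with 1.33, 1.53, 11.9 and 3.24 FPKM at 96 h and 1.75, 1.51, 11.5 and 3.25 at 120 h. Esrrb was at 0.527, 0.592, 3.93 and 1.53 FPKM at 96 h and at 0.701, 0.664, 4.13 and 1.38 at 120 h. Klf2 was at 0.264, 0.387, 3.95 and 1.01 FPKM at 96 h and at 0.647, 0.438, 3.39 and 0.835 at 120 h. Replicate 3 was also highest for Klf5, Tfcp2l1, Nr0b1 and Tbx3 at both stages, while for Klf4 it was lowest at 96 h and second lowest at 120 h.

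In replicate 3 the 10 general pluripotency genes summed to 213 FPKM at 96 h and 186 FPKM at 120 h, against 99.1 to 124 and 68.6 to 106 in the other replicates. The 9 primordial germ cell genes summed to 18.4 FPKM at 96 h, against 5.83 to 7.61, and the 8 posterior body axis genes to 604 FPKM, against 464 to 596. Markers of the axis were thus present in replicate 3 at no lower a level, and what set its naive genes apart was not tested. Since replicate 3 is 1 of the 4 controls at each stage, each comparison of a mutant with wt at these stages is given with and without it.

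At 144 h the 2 wt libraries outside the time course differed from the 2 within it, a contrast chosen after the values had been seen. Dppa5a was at 3.37 and 6.11 FPKM outside and 73.1 and 65.4 within, and Nanog at 0.192 and 0.380 against 4.18 and 4.71. Zfp42 was at 0.342 and 0.346 FPKM against 2.77 and 2.98. For all 3 genes both values outside lay below both within, as for 34.5% of all genes. Dppa5a (-3.90 ± 0.81, adjusted p = 0.000552), Nanog (-3.60 ± 0.75, adjusted p = 0.000609), Klf2 (-2.35 ± 0.71, adjusted p = 0.0143) and Zfp42 (-2.74 ± 0.83, adjusted p = 0.0153) were called lower outside the time course, where 11.2% of all genes were. The calls of Klf2 and Zfp42 were lost whichever of the 4 libraries was left out. Of the general pluripotency genes 8 of 10 were lower, so that wt libraries of 1 stage and 1 genotype spanned a wide range of these genes. Markers of other cells differed between the same libraries. Of 5 cardiac genes tested 3 were lower outside the time course, with Myl7 at -6.65 ± 1.01 and sums of 5.94 and 6.46 FPKM against 63.5 and 111. Of 8 posterior body axis genes 4 were lower and 1 higher, with Msgn1 at -5.75 ± 0.51, Tbx6 at -4.06 ± 0.34 and sums of 196 and 193 FPKM against 304 and 293. The part of these cells in the naive genes was not tested.

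**Figure D2:**
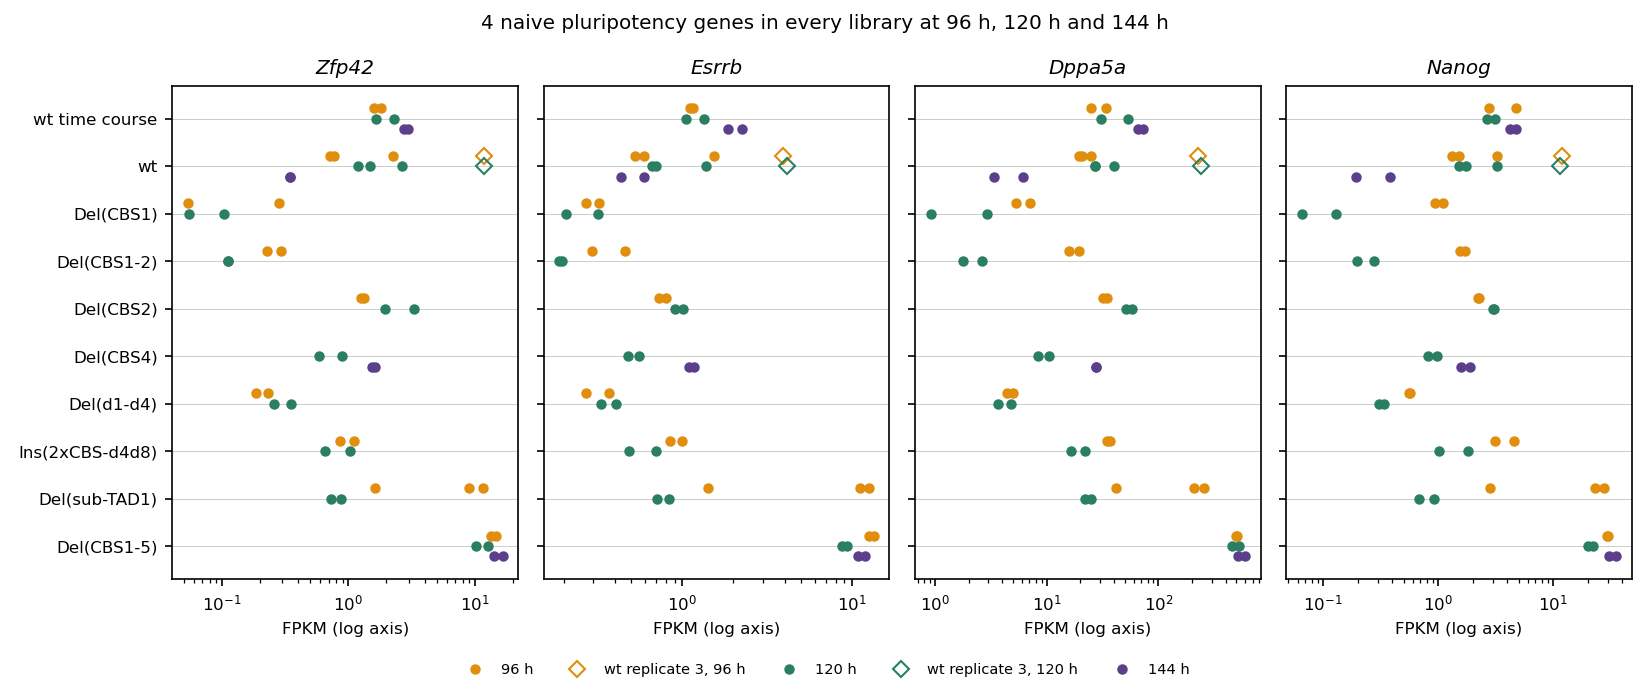
Levels of Zfp42, Esrrb, Dppa5a and Nanog by line in every library of the 96, 120 and 144 h stages, in FPKM on a log axis. Each point is 1 library, colored by stage, and open diamonds are wt replicate 3. The 6 Del(CBS1-5) libraries, replicates 2 and 3 of Del(sub-TAD1) at 96 h and both libraries of wt replicate 3 held the highest Dppa5a, from 207 to 597 FPKM, with no other plotted library above 73.1.

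Of 170 tests of the 10 genes in the 17 mutant conditions against wt of the same stage, 34 were called higher and 21 lower. The higher calls were all in Del(CBS1-5) and in Del(sub-TAD1) at 96 h, the lines derived from blastocysts, and but for Klf4 in Del(CBS1-5) at 144 h the lower calls were all in lines made from the wt cells. Comparisons at a stage share the same wt libraries and are not independent of each other. Tbx3 passed the filter for testing only through Del(CBS1-5) and Del(sub-TAD1) at 96 h, and Nr0b1 through these and the time course at 168 h, so that in those conditions they had to be high. Without any filter the counts in Del(CBS1-5) were 9 of 10 genes higher at 96 h, 8 at 120 h and 9 at 144 h, as with it.

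Del(CBS1-5) stembryos, which lack 5 CTCF sites of the cluster, had the naive genes on at every stage. Dppa5a was at 506 and 498 FPKM at 96 h, 461 and 526 at 120 h, and 597 and 514 at 144 h. Nanog was at 29.5 and 29.8 FPKM at 96 h, 20.1 and 22.1 at 120 h, and 35.4 and 30.4 at 144 h. Zfp42 was at 13.4 and 14.7 FPKM at 96 h, 10.3 and 12.8 at 120 h, and 16.6 and 14.1 at 144 h. Dppa5a and Nanog lay above every wt library of the stage, wt replicate 3 included, and Zfp42 did so except at 120 h, where replicate 1 was below wt replicate 3.

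Esrrb was at 12.5 and 13.4 FPKM at 96 h, 8.75 and 9.35 at 120 h, and 11.9 and 10.8 at 144 h, above every wt library at any stage. Klf2 was at 11.9 and 11.6 FPKM at 96 h, 8.41 and 9.53 at 120 h, and 9.42 and 11.5 at 144 h. Nr0b1 was at 5.44 and 6.47 FPKM at 96 h, 4.38 and 4.98 at 120 h, and 3.73 and 3.94 at 144 h. For Klf2 and Nr0b1, too, no wt library came near these values.

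At 96 h 9 of the 10 genes were called higher, all but Klf4 (0.35 ± 0.23, adjusted p = 0.362), where 8.45% of all genes were. The log2 changes were 3.70 ± 0.70 for Dppa5a (adjusted p = 0.000406), 3.65 ± 0.61 for Klf2 (adjusted p = 9.25e-05), 3.65 ± 0.66 for Nr0b1, 3.33 ± 0.60 for Esrrb, 3.26 ± 0.65 for Nanog, 2.75 ± 0.72 for Zfp42, 2.31 ± 0.50 for Tfcp2l1, 2.15 ± 0.45 for Tbx3 and 1.09 ± 0.33 for Klf5 (adjusted p = 0.0225). The median of the 10 genes was 3.005, against 0.04 over all genes. Klf5 was not called without wt replicate 2 or 4, and neither Klf5 nor Zfp42 without either mutant library.

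At 120 h 8 genes were called higher, where 6.42% of all genes were, with Dppa5a at 3.25 ± 0.70 (adjusted p = 0.00201), Nr0b1 at 3.17 ± 0.66, Klf2 at 3.08 ± 0.61 (adjusted p = 0.00095) and Nanog at 2.69 ± 0.65 (adjusted p = 0.00557). Zfp42 (2.02 ± 0.72, adjusted p = 0.0576) and Klf4 (0.40 ± 0.23) were not called. Without wt replicate 3 of 120 h Zfp42 was called as well (2.705, adjusted p = 0.00386). Tfcp2l1 (1.61 ± 0.50) and Tbx3 (1.41 ± 0.45) were not called without wt replicate 1 or 2 or either mutant library, nor Nanog without either mutant library. With wt libraries of only the same library set as controls, 9 genes were higher at 96 h and 8 at 120 h, with both wt replicate 3 libraries left out 9 and 9, and with only the groups compared in the fit 0 and 0.

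At 144 h 9 genes were called higher and Klf4 lower, where 15.5% and 8.18% of all genes were. The changes were 6.90 ± 0.81 for Dppa5a (adjusted p = 4.21e-08), 6.46 ± 0.75 for Nanog (adjusted p = 3.87e-08), 5.11 ± 0.83 for Zfp42, 4.22 ± 0.69 for Esrrb, 3.97 ± 0.71 for Klf2, 3.45 ± 0.76 for Nr0b1, 3.28 ± 0.52 for Tbx3, 2.71 ± 0.58 for Tfcp2l1 and 1.91 ± 0.38 for Klf5. These 9 calls were kept with any 1 library left out and with only the groups compared. The controls here are the 144 h wt libraries with the lowest Dppa5a and Nanog named above. With the 144 h libraries of the time course added to them, Dppa5a was at 4.95 ± 0.89 and Nanog at 4.66 ± 0.83, and the same 9 genes were called. Klf4 was at 0.755 and 0.781 FPKM, below the 1.66 and 1.43 of the wt (-0.92 ± 0.27, adjusted p = 0.0107), a call lost without wt replicate 1 (-0.81, adjusted p = 0.0989) or either mutant library.

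Other markers moved with these genes. Of 10 general pluripotency genes 7 were higher at 96 h (median 2.41), 8 at 120 h and 8 at 144 h (median 6.25), where Pou5f1 was at 6.57 ± 0.62 and Tdgf1 at 7.34 ± 0.93. The sum of these 10 genes was 375 and 376 FPKM at 96 h, against 99.1 to 213 in wt, and 493 and 490 FPKM at 144 h, against 105 and 101.5. Of 9 primordial germ cell genes 8 were higher at 96 h, 4 at 120 h and 5 at 144 h, with Dppa3 (Stella), which is also a naive gene, at 5.04 ± 1.08 and Nanos3 at 3.14 ± 0.66 at 96 h. The germ cell sum was 46.3 and 48.5 FPKM at 96 h and 69.2 and 73.1 at 144 h, against 5.83 to 18.4 and 13.8 to 14.0 in wt. Of 9 formative genes 0 were higher and 2 lower at 96 h, and 7 were higher at 144 h. None of 8 posterior body axis genes was called at 96 h, with sums of 577 and 580 FPKM against 464 to 604. At 120 h 2 of them were lower, Sox1 (-1.57 ± 0.37) and Cdx2 (-0.96 ± 0.29), and at 144 h 3 were lower and 1 higher, with Cdx2 at -1.86 ± 0.33, Pax6 at -1.59 ± 0.47 and Meox1 at 1.26 ± 0.35. At 120 h 8 of 8 endothelium genes and 4 of 9 endoderm genes were higher. The part of any of these cell types in the naive genes was not tested.

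Del(sub-TAD1) stembryos, which lack a regulatory domain next to the cluster, had 8 of the 10 genes called higher at 96 h, where 21.8% of all genes were, with a median of 1.83 against 0.06. Count and median include Tbx3 and Nr0b1. These passed the filter for testing only through this condition, Del(CBS1-5) and, for Nr0b1, the time course at 168 h. The 3 libraries differed widely. Dppa5a was at 41.5, 207 and 257 FPKM in replicates 1 to 3, Nanog at 2.80, 23.0 and 27.5, and Esrrb at 1.42, 11.2 and 12.5. Replicates 2 and 3 were close to Del(CBS1-5) in Nanog and Esrrb, and replicate 1 was within the range of the 96 h controls for every gene but Klf4. For Dppa5a, Klf2, Nr0b1 and Tbx3 that held only through wt replicate 3. The other controls reached at most 24.8, 1.01, 0.335 and 0.480 FPKM of these genes.

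Zfp42 was at 1.62, 8.94 and 11.7 FPKM, Klf2 at 1.21, 6.37 and 7.72, and Nr0b1 at 0.666, 4.37 and 4.63. The spread within the condition was thus as wide as the difference from wt, and for none of the 8 genes were all 3 libraries clear of the wt. The changes were 2.4004 ± 0.58 for Nr0b1 (adjusted p = 0.00148), 2.21 ± 0.53 for Esrrb (adjusted p = 0.00134), 2.10 ± 0.54 for Klf2, 1.98 ± 0.58 for Nanog (adjusted p = 0.00639), 1.90 ± 0.44 for Tfcp2l1, 1.75 ± 0.62 for Dppa5a (adjusted p = 0.0231), 1.57 ± 0.40 for Tbx3 and 0.87 ± 0.29 for Klf5. Zfp42 (1.43 ± 0.63, adjusted p = 0.0701) and Klf4 (0.32 ± 0.21) were not called.

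Without replicate 1, 9 genes were called, with Esrrb at 3.20, Nanog at 3.02 and Dppa5a at 2.58, and without replicate 2 or 3, 5 genes were called, with Klf5, Nanog and Dppa5a lost. The call of Dppa5a was also lost without wt replicate 1 (1.42, adjusted p = 0.0944), 2 (1.45, adjusted p = 0.091) or 4 (1.54, adjusted p = 0.0529) of 96 h, and that of Klf5 without wt replicate 2 (0.79, adjusted p = 0.0567). With both wt replicate 3 libraries left out 9 genes were called, and with only the groups compared 0. With controls of the same library set, wt replicate 4 and the 96 h libraries of the time course, 4 were called. In replicates 1 to 3 the general pluripotency genes summed to 145, 270 and 293 FPKM, the germ cell genes to 12.6, 33.0 and 37.3 FPKM and the endoderm genes to 311, 133 and 117 FPKM, against 66.7 to 150 for endoderm in wt at 96 h. The library with the fewest naive transcripts thus held the most endoderm markers, and the part of that cell type was not tested.

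At 120 h none of the 10 genes lay above all controls in the same line. Dppa5a was at 21.8 and 24.9 FPKM, Zfp42 at 0.874 and 0.730, and Nanog at 0.687 and 0.912. These 3 genes lay below all 4 wt libraries, as 10.9% of all genes did. The others overlapped the wt, with Klf5 at 0.737 and 0.958 FPKM against 0.316 to 1.30. None of the 10 genes was called by limma, where 6.15% of all genes were, although 2 had an unadjusted p under 0.05 (Nanog -1.88 ± 0.65 and Zfp42 -1.67 ± 0.72). With both wt replicate 3 libraries left out these were -1.27 ± 0.51 and -0.98 ± 0.50, again without a call. The change of the mutant effect from 96 h to 120 h was called lower for 7 of the 10 genes, where 8.39% of all genes were, with Nanog at -3.86 ± 0.87 (adjusted p = 0.00387), Nr0b1 at -3.28 ± 0.88, Zfp42 at -3.10 ± 0.96, Esrrb at -2.90 ± 0.80, Dppa5a at -2.89 ± 0.94, Klf2 at -2.81 ± 0.81 and Tfcp2l1 at -2.38 ± 0.67. With 1 library left out 4 to 8 genes were called, 4 without mutant replicate 2 of 120 h and 5 without mutant replicate 1 of 120 h or mutant replicate 2 or 3 of 96 h. The call of Dppa5a was lost in 7 of 13 such fits, those and the ones without wt replicate 1 or 2 of 96 h or wt replicate 3 of 120 h (-2.16, adjusted p = 0.0515), that of Zfp42 in 4 and that of Klf2 in 1. The 96 h and 120 h libraries of this line belong to different library sets, so that stage and set cannot be told apart here.

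**Figure D3:**
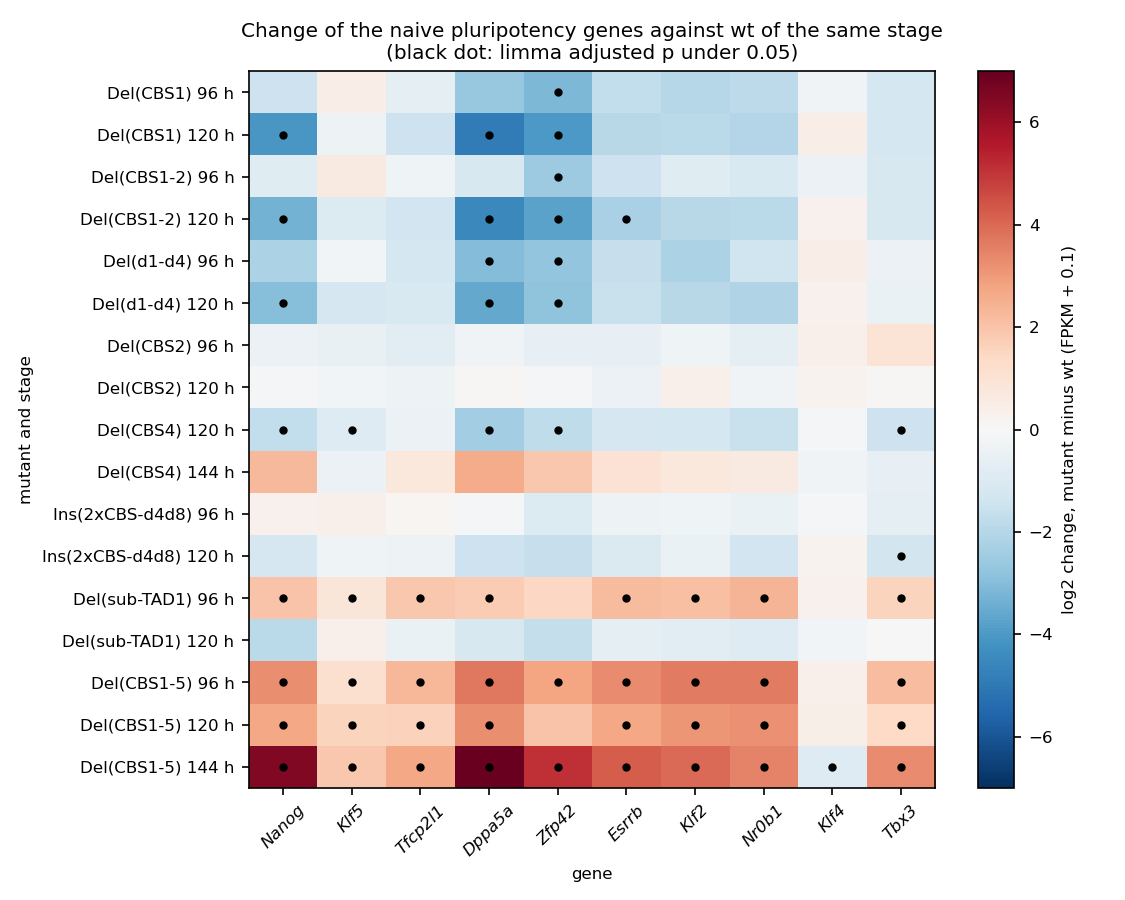
Log2 change of each of the 10 genes in the 17 mutant conditions against wt of the same stage, as color from blue (lower) to red (higher), with black dots for an adjusted p under 0.05 by limma. In Del(CBS1-5) 9, 8 and 9 genes were called higher at the successive stages, and in Del(CBS1) at 120 h 3 were called lower.

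Against wt of their stage, lines made from the wt cells had genes called lower or no gene called. In Del(CBS1) at 120 h Dppa5a was at 0.912 and 2.94 FPKM, Nanog at 0.0652 and 0.129, and Zfp42 at 0.0553 and 0.103. These values lay below every wt library, the lowest of which held 26.9, 1.51 and 1.20 FPKM. Those of Zfp42 and Nanog are near the 0.1 FPKM added before the log2. They are also near the 0.0479 to 0.124 FPKM that 3 fragments of Nr0b1, a gene close to Zfp42 in length, were worth. The size of their changes is thus uncertain. Dppa5a (-4.88 ± 0.70, adjusted p = 8.58e-05), Nanog (-4.08 ± 0.65, adjusted p = 0.000419) and Zfp42 (-4.01 ± 0.72, adjusted p = 0.00131) were called lower, where 0.807% of all genes were, and the median of the 10 genes was -1.92 against -0.01. The calls of Dppa5a and Nanog were kept with any 1 library left out, and that of Zfp42 was lost without mutant replicate 1 (-3.81, adjusted p = 0.0532). Klf4, at 1.41 and 1.17 FPKM, was at 0.44 ± 0.23 and not called.

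At 96 h Del(CBS1) had 1 call, Zfp42, at 0.0538 and 0.282 FPKM (-3.12 ± 0.72, adjusted p = 0.0219), where 0.678% of all genes were lower. The lower Zfp42 value is also under the 0.1 FPKM added before the log2. Dppa5a, at 7.15 and 5.30 FPKM, missed the threshold (-2.63 ± 0.70, adjusted p = 0.0523). Del(CBS1-2), made in these cells, likewise had Zfp42 called at 96 h, at 0.226 and 0.294 FPKM (-2.55 ± 0.72, adjusted p = 0.035), where 2.47% of all genes were lower. At 120 h 4 genes were called lower in Del(CBS1-2), where 1.3% of all genes were: Dppa5a, at 2.63 and 1.78 FPKM (-4.51 ± 0.70, adjusted p = 0.000338), Zfp42 at 0.111 and 0.112 (-3.75 ± 0.72), Nanog at 0.198 and 0.277 (-3.29 ± 0.65) and Esrrb at 0.196 and 0.189 (-2.26 ± 0.60, adjusted p = 0.0373). None of these libraries reached a wt library of its stage.

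In Del(d1-d4) at 96 h Zfp42 (0.184 and 0.232 FPKM, -2.77 ± 0.72, adjusted p = 0.044) and Dppa5a (4.38 and 5.01 FPKM, -3.02 ± 0.70, adjusted p = 0.0214) were called lower, where 0.69% of all genes were. At 120 h Dppa5a (4.79 and 3.66 FPKM, -3.59 ± 0.70, adjusted p = 0.00389), Nanog (0.337 and 0.304 FPKM, -2.96 ± 0.65, adjusted p = 0.0101) and Zfp42 (0.349 and 0.259 FPKM, -2.83 ± 0.72, adjusted p = 0.0305) were called, where 1.53% of all genes were lower. At both stages all these values were below the lowest wt library.

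How many of these lower calls were made depended on single libraries. All calls at 96 h in Del(CBS1), Del(CBS1-2) and Del(d1-d4) were lost without wt replicate 3 of 96 h, or without either mutant library, and without wt replicate 4 of 96 h all but that of Dppa5a in Del(d1-d4) were lost. The counts rose to 3 in Del(CBS1) and 4 in Del(d1-d4), with Klf2 called in both, when wt replicate 1 or 2 of 96 h was left out. With wt replicate 3 left out at both stages at once, 2, 1 and 2 genes were called at 96 h, with the SE of Zfp42 at 0.50 in place of 0.72. At 120 h, without wt replicate 3 of that stage, 3 genes were called in Del(CBS1), 3 in Del(CBS1-2) and 2 in Del(d1-d4), with Esrrb in Del(CBS1-2) (-1.73) and Zfp42 in Del(d1-d4) (-2.14) lost, as they were without wt replicate 4. Without wt replicate 2 of 120 h the counts were 7, 8 and 6, with Klf2 and Nr0b1 called in all 3 lines, and without wt replicate 1 they were 4, 6 and 4. The count with 1 mutant library left out was at the least 2, 1 and 0. With wt libraries of only the same library set as controls, the counts at 120 h were 3, 2 and 1, and at 96 h 0 in each line. With only the groups compared in the fit none of these calls was kept.

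General pluripotency genes fell in these lines at 120 h, 6 of 10 in Del(CBS1) (median -2.70), 6 of 10 in Del(CBS1-2) and 7 of 10 in Del(d1-d4). In Del(CBS1), Pou5f1 was at -3.86 ± 0.53 and Tdgf1 at -3.89 ± 0.80. Endoderm and endothelium markers were higher in Del(CBS1) and Del(CBS1-2), with endoderm sums of 80.3 to 124 FPKM against 27.9 to 63.3 in wt and endothelium sums of 29.8 to 38.5 against 13.6 to 16.6. Other sums in these 2 lines lay below those of wt. These were cardiac (4.05 to 5.47 FPKM against 5.66 to 6.84), posterior body axis (367 to 382.5 against 400 to 486) and formative genes (128 to 143 against 147 to 163). In Del(CBS1) 5 of 9 endoderm and 6 of 8 endothelium genes were called higher, where 1.29% of all genes were. None of either list was in Del(d1-d4), where 0.322% of all genes were. The part of these cell types was not tested.

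In Del(CBS4) at 120 h 5 of the 10 genes were called lower, where 22.2% of all genes were. Dppa5a was at 10.6 and 8.38 FPKM (-2.44 ± 0.70, adjusted p = 0.00641), Tbx3 at 0.132 and 0.0806 (-1.46 ± 0.45, adjusted p = 0.0103), Nanog at 0.984 and 0.822 (-1.71 ± 0.65, adjusted p = 0.0373) and Zfp42 at 0.886 and 0.584 (-1.80 ± 0.72, adjusted p = 0.047). These lay below all wt libraries, while Klf5, at 0.406 and 0.203 FPKM (-0.89 ± 0.33, adjusted p = 0.035), overlapped them. Without wt replicate 3 of 120 h 2 genes were called, with Nanog at -1.11, Zfp42 at -1.11 and Klf5 at -0.57 lost, and without mutant replicate 2 none was (Dppa5a -2.27, adjusted p = 0.0766). Without wt replicate 4 or mutant replicate 1 it was 3. Controls of the same library set were here wt replicate 4 and the 120 h libraries of the time course. With these 1 gene was called, and with only the groups compared 0.

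Markers of other cells also differed in Del(CBS4) at 120 h. Of 10 general pluripotency genes 6 were lower (Fgf4 at -2.41 ± 0.35, Dppa4 at -2.67 ± 0.53, Tdgf1 at -2.74 ± 0.80) and 3 higher (Sox2, which is also a neural gene, at 1.99 ± 0.39, Trim71 at 0.59 ± 0.12 and Sall4 at 0.30 ± 0.12, these 3 named after their values were seen), and the sum of the 10 was 143 and 168 FPKM against 68.6 to 186 in wt. Of 8 posterior body axis genes 4 were lower, with Msgn1 at -2.55 ± 0.44, and 2 neural genes of that list were higher, Pax6 at 3.11 ± 0.41 and Sox1 at 2.43 ± 0.37. The axis sum was 329 and 264 FPKM against 400 to 486. Of 9 endoderm genes 6 were lower, with a sum of 24.1 and 18.0 FPKM against 27.9 to 63.3. The part of these cell types was not tested.

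At 144 h none of the 10 genes was called by limma in Del(CBS4), where 2.05% of all genes were, and 3 had an unadjusted p under 0.05. Dppa5a was at 27.7 and 27.7 FPKM against 3.37 and 6.11 in wt (2.58 ± 0.81, adjusted p = 0.0942), Nanog at 1.89 and 1.57 against 0.192 and 0.380 (2.28 ± 0.75) and Zfp42 at 1.61 and 1.53 against 0.342 and 0.346 (1.91 ± 0.83). All of these were above their controls and below the 144 h libraries of the time course. Of the 10 genes 7 lay above all controls and 3 below, as 28% and 27.2% of all genes did. The change of the mutant effect from 120 h to 144 h was called higher for 3 genes, where 4.84% of all genes were: Dppa5a (5.02 ± 1.07, adjusted p = 0.00245), Nanog (3.997 ± 0.998, adjusted p = 0.00977) and Zfp42 (3.71 ± 1.10, adjusted p = 0.0317). It contrasts wt libraries that include replicate 3 at 120 h with those at 144 h that lay low, and without wt replicate 3 it was called for 2 genes, with Zfp42 at 3.02 lost. Without wt replicate 1 of 144 h or mutant replicate 2 of 120 h it was called for Dppa5a alone, and Zfp42 was also lost without any 1 of the other 144 h libraries or mutant replicate 1 of 120 h.

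Del(CBS2) was close to wt, and so was Ins(2xCBS-d4d8) at 96 h. In Del(CBS2) none of the 10 genes was called by limma at 96 h or at 120 h, where 0.298% and 0.193% of all genes were, and 1 and 0 had an unadjusted p under 0.05. Dppa5a was at 34.7 and 31.6 FPKM at 96 h and at 51.0 and 58.2 at 120 h, and Nanog at 2.24 and 2.23 and then at 2.99 and 3.04. These values lay within the range of the wt libraries, for Dppa5a only through wt replicate 3, the other wt libraries holding 19.4 to 24.8 FPKM at 96 h and 26.9 to 40.2 at 120 h. With both wt replicate 3 libraries left out the change of Dppa5a was 0.63 ± 0.44 at 96 h and 0.82 ± 0.44 at 120 h, in place of -0.22 ± 0.70 and 0.08 ± 0.70, and again none of the 10 genes was called. In Ins(2xCBS-d4d8) none was called at 96 h, with 0 at an unadjusted p under 0.05, where 27.9% of all genes were, nor with both wt replicate 3 libraries left out. At 120 h the median of the 10 genes was -1.10, against 0.00 over all genes, and 4 had an unadjusted p under 0.05. Dppa5a (22.0 and 16.4 FPKM), Zfp42 (1.03 and 0.658) and Tbx3 lay below all wt libraries, as 11.8% of all genes did. Only Tbx3 was called lower, at 0.143 and 0.123 FPKM against 0.245 to 0.862 in wt (-1.28 ± 0.45, adjusted p = 0.0323), where 16.8% of all genes were. That call was lost without wt replicate 3 (-1.02, adjusted p = 0.123), wt replicate 4 (-1.11, adjusted p = 0.0678) or either mutant library, and without wt replicate 2 there were 3 calls, with Nr0b1 (-1.81) and Zfp42 (-2.004) added. With upper-quartile scaling the median of all genes moved by 0.149 and 0.150 in this line, and the share of higher among all calls at 96 h went from 43.8% to 64.7%, and at 120 h the same share rose from 37.8% to 61.7%.

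The test of a change of effect between stages was also made for the other lines. In Del(CBS1-5) the change from 120 h to 144 h was called for Nanog (3.76 ± 1.00, adjusted p = 0.0161) and Dppa5a (3.65 ± 1.07, adjusted p = 0.0309), where 4.99% of all genes were higher, and for Klf4 (-1.32 ± 0.36, adjusted p = 0.0189), where 2.08% were lower. In the mutant Dppa5a was at 461 and 526 FPKM at 120 h and at 597 and 514 at 144 h. Nanog was at 20.1 and 22.1 FPKM and then higher, at 35.4 and 30.4. The controls were lower in both genes at 144 h. Without wt replicate 1 of 144 h, mutant replicate 1 of 120 h or mutant replicate 1 of 144 h none of the 3 was called, without mutant replicate 2 of either stage Nanog alone was, and without wt replicate 3 of 120 h the call of Dppa5a was lost (2.91, adjusted p = 0.0517). From 96 h to 120 h no gene was called by limma in Del(CBS1-5), Del(CBS1), Del(CBS1-2), Del(CBS2), Del(d1-d4) or Ins(2xCBS-d4d8), where 0.257%, 0.0526%, 0.175%, 0.0117%, 0.0234% and 0.392% of all genes were, and 0, 2, 4, 0, 0 and 0 of the 10 had an unadjusted p under 0.05. Without wt replicate 3 of 96 h Dppa5a was called in Del(CBS1-2) (-4.22, adjusted p = 0.0115).

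Seen over all 61 libraries, several of the genes had an empty range between low and high libraries. No library held Zfp42 between 3.43 and 8.94 FPKM, and the 10 above were the 6 of Del(CBS1-5), replicates 2 and 3 of Del(sub-TAD1) at 96 h and wt replicate 3 at 96 h and 120 h. The same 10 lay above a gap of Dppa5a from 107 to 207 FPKM. For Esrrb the gap was from 4.13 to 8.75 FPKM, for Nr0b1 from 2.04 to 3.73 and for Klf2 from 3.95 to 6.37, each with 8 libraries above it, the same without wt replicate 3. Klf4 had no such gap.

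The ratio of Esrrb to Zfp42, both in FPKM, differed within the high libraries. It was 0.335 and 0.350 in wt replicate 3 at 96 h and 120 h, the other wt libraries of these stages lying between 0.477 and 0.830. In Del(CBS1-5) it was between 0.719 and 0.931 and in Del(sub-TAD1) at 96 h 0.876, 1.25 and 1.07. Wt replicate 3 thus matched the mutant lines in Zfp42 but held less Esrrb, and these libraries were set side by side after their values had been seen, with no test. Outside the high libraries the ratio also varied between replicates, at 0.517 and 0.274 in replicates 1 and 2 of Del(CBS2) at 120 h.

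**Figure D4:**
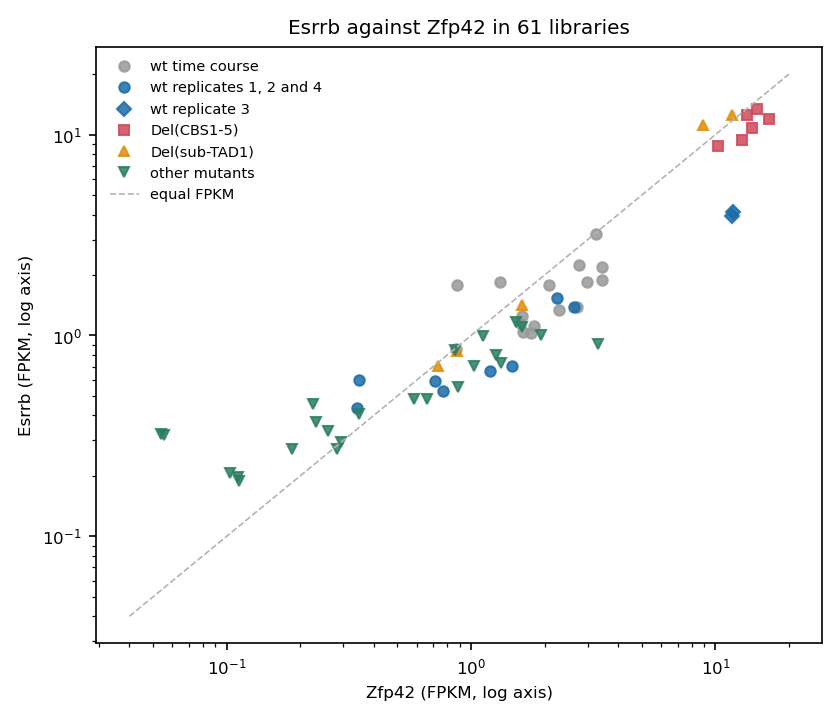
Esrrb against Zfp42 in the 61 libraries, both in FPKM on log axes, 1 point per library, colored by line with the other mutants together, and a dashed line of equal FPKM. Wt replicate 3 at 96 h and 120 h lay at 11.7 and 11.8 FPKM of Zfp42 with 3.93 and 4.13 of Esrrb, while Del(CBS1-5) held 8.75 to 13.4 of Esrrb.

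Across the 61 libraries, which share lines, stages and library sets, log2 levels of Esrrb and Nr0b1 (Pearson's r = 0.966) and of Zfp42 and Dppa5a (r = 0.961) were the most alike among the 10 genes. Klf4 was unlike all others (r from -0.0287 to 0.201). Over the 8 stage means of the time course Klf5 was most like Tfcp2l1 (r = 0.964), and Zfp42 like Dppa5a (r = 0.907). The order among the genes thus differed between single libraries and stage means. The latter leave out both the mutants and the wt libraries outside the time course. All these are descriptions across samples, with no test.

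Genes outside the 10 were also ranked by their likeness to each, among 13791 genes with a mean of at least 1 FPKM over the 61 libraries. The nearest was Tdgf1 for Nanog (r = 0.965), Gpa33 for Esrrb (0.963) and for Nr0b1 (0.938), F2rl1 for Klf5 (0.962), Triml2 for Zfp42 (0.961), Hspb1 for Dppa5a (0.957), Fbxo15 for Klf2 (0.941), Zyg11a for Tfcp2l1 (0.916), Rhox5 for Tbx3 (0.869) and Ifnar2 for Klf4 (0.717). Tdgf1, a coreceptor of Nodal, and L1td1 (r = 0.961), an RNA-binding protein gene of stem cells, were also among the 3 nearest to Nanog over the 8 stage means (r = 0.992 and 0.996). Klf4 was next nearest to Fn1 (0.701), which encodes fibronectin, and its nearest genes held no listed marker of pluripotency.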

How the data were processed

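RNA-seq of 61 libraries in 28 conditions was analysed, with groups and replicate numbers from the sample titles. The authors sequenced stranded polyadenylated RNA as 75-base paired ends, mapped it to mm10, kept reads with a single position and computed FPKM on an annotation based on Ensembl release 102. The submitters' processing notes name cutadapt 1.16, STAR 2.7.7a and Cufflinks 2.2.1. The authors deposited FPKM for each gene, scaled to transcript length and mapped fragments, with no counts, so that no count test was used. Lines of 25 identifiers listed more than once were summed. In 14 genes, none of them of the 10, the FPKM estimate was marked as failed in 1 library or more. Depth (median 24.0 M fragments, 1 M being 1e6) was inferred from single-fragment steps, 81.8% to 98.5% of low values being whole within 0.1, over genes of 1000 bases or longer and values worth 10 fragments or fewer. The limit it sets was worked out for the genes with a single transcript, Klf2, Nr0b1 and Dppa5a. Among these Nr0b1 was limited most, 3 fragments being worth 0.0479 to 0.124 FPKM. These limits cover counting error only.

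Log2(FPKM + 0.1) was fitted with limma 3.58.1 in R 4.3.3 over all 61 libraries, with 1 coefficient per condition, without a trend, on the 17098 genes with a mean of at least 1 FPKM in at least 1 condition. All p-values are two-sided, with Benjamini-Hochberg adjustment over all genes tested per comparison and a threshold of 0.05. The fit was tested on simulated data. Each mutant was compared with those wt libraries of its stage that are not in the time course, and no Hox-based scaling was applied. Only the controls of the same library set, an alternative named below, took in the time course. All its libraries are of the set low in mitochondrial mRNAs. Tables and figures used the data.table package (version 1.17.8), Python 3.11.15, pandas 2.3.3, numpy 2.4.6 and matplotlib 3.10.9. Promoter windows came from a RefSeq table of GRCm38.p6.

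The 10 genes, the 8 lists of marker genes (general pluripotency, other naive, formative, primordial germ cell, endoderm, endothelium, cardiac and posterior body axis) and the comparisons were chosen with earlier results of these data known. Dppa3 and Prdm14 are in both the naive and the germ cell list. Of each list up to 3 genes with the largest change in a comparison were named, and for each of the 10 genes the 3 with the largest correlation. Same-numbered wt libraries at 96 h and 120 h deviated together from their group means (r from 0.561 to 0.889 in 4 pairs), so that the numbers pair them, and the paired fit is given beside that comparison. Effects between 96 h and 120 h rest on the same wt libraries, and their SE and p-values in the main fit do not use this pairing. Alternatives were 2 other scalings, a pseudocount of 1, no filter, trend and robust moderation, only the groups compared, a replicate block, controls of the same library set, and leaving out each library or both libraries of wt replicate 3. The block restricted to wt libraries was added after the data had been seen.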

Additional observations from a re-analysis of the deposited data

Results flagged for a closer look

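Among the 4 wt libraries at 96 h, replicate 3 stood apart by Dixon's criterion in Zfp42 (11.7 FPKM), Nr0b1 (1.95 FPKM) and Dppa5a (225 FPKM), and at 120 h in Zfp42 (11.8 FPKM), Klf2 (3.39 FPKM), Nr0b1 (2.04 FPKM) and Dppa5a (239 FPKM). These were 7 of 20 groups of 4 libraries tested, where chance gives about 1 in 20, and the genes are not independent of each other. In all 7 the highest library was replicate 3, and in none was it another.

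The effect of a mutation differed between stages for several genes by the contrast in the same limma fit. In Del(sub-TAD1) the change of effect from 96 h to 120 h was -3.86 for Nanog, -3.28 for Nr0b1, -3.10 for Zfp42, -2.90 for Esrrb, -2.89 for Dppa5a, -2.81 for Klf2 and -2.38 for Tfcp2l1 on the log2 scale. In Del(CBS4) the change from 120 h to 144 h was 5.02 for Dppa5a, 3.997 for Nanog and 3.71 for Zfp42. In Del(CBS1-5) it was 3.76 for Nanog, 3.65 for Dppa5a and -1.32 for Klf4. With only the groups compared in the fit none of these 13 differences was called.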

How the results depend on the processing

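Of 83 calls of the 10 genes, none changed direction under any alternative run. With 1 library left out in turn, 41 were kept each time and 42 were lost at least once. Trend and robust moderation kept 83 of 83, median-ratio scaling 82, upper-quartile scaling 80, no filter 75 and a pseudocount of 1 FPKM 65. Fitting only the groups compared, which leaves few libraries to estimate the spread, kept 17: calls between neighbouring stages went from 5 to 1 of 70, for 120 h against 72 h from 4 to 2, for wt 120 h against 96 h from 2 to 0, for the mutants from 55 to 11 of 170 (10 higher in place of 34 and 1 lower in place of 21) and for effects between stages from 13 to 0 of 90. Lower calls in mutants went from 21 to 7 with a pseudocount of 1 FPKM and to 8 with controls of the same library set. Of 2 calls of wt 120 h against 96 h, 1 was made within library set 1 and 1 within set 2, where the time course libraries were counted too. Causes were not tested.

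With 1 library left out, the calls ranged from 2 to 7 between neighbouring stages, 2 to 4 for 120 h against 72 h, 2 to 2 for wt 120 h against 96 h, 49 to 69 for the mutants (31 to 37 higher, 15 to 36 lower) and 8 to 16 for effects between stages.

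A replicate block gave 8 calls between neighbouring stages in place of 5, 43 higher and 17 lower in the mutants, and 18 effects between stages. Same-numbered libraries of the time course (r from -0.0893 to 0.132, 2 of 56 pairs over 0.1) and of mutants and wt (r from -0.0597 to 0.0838, 0 of 35) share only a number. The block of wt libraries changed no call of the 10 genes between 96 h and 120 h.

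Upper-quartile scaling moved the median log2 change of all genes by 0.116 in Del(CBS4) at 120 h, 0.120 in Del(sub-TAD1) at 96 h and -0.209 in its effect between stages. It moved the share of higher among all called genes from 40.6% to 58.7%, from 54.7% to 67.9% and from 64.5% to 36.0%, and in Del(CBS1-5) at 96 h from 57.0% to 43.5% and at 144 h from 65.5% to 55.1%. A single fragment limits what can be read from Nr0b1 and other values near 0.1 FPKM.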
